A study of Mus musculus with 12 samples.

Results

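The genes of the IL-17 axis were followed in whole-lung RNA of 12 mice: the ligands Il17a, Il17f, Il17c and Il17d, the receptor chains Il17ra, Il17rc, Il17rd and Il17re, and the IL-23 pair Il23a and Il23r. Every non-control probe that carried the name of 1 of these 10 genes on the Agilent whole mouse genome array was taken, which gave 17 of 41174 probes, and 10 of 27745 gene names. Each mouse had 1 array, and there were 3 groups with n = 4: wild-type mice kept in room air (WT room air), wild-type mice given cigarette smoke (WT smoke) and Rora mutants given the same smoke. Every mouse was labelled as male, C57Bl/6 and 12 weeks of age, and smoke was given on 5 days a week for 4 months. Since 4 months is longer than 12 weeks, the labelled age does not describe the mice when exposure ended. The labels did not give the Rora allele, the smoke groups shared the exposure, and Rora mutants in room air were not analysed here, so an effect of genotype alone and a genotype effect on the smoke response cannot be told apart. The labels called the mice of a group biological replicates.

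IL-17A and IL-17F are secreted by type 17 T cells, gamma-delta T cells and innate lymphoid cells, and act on epithelium and stroma through a receptor of the chains IL-17RA and IL-17RC. The signal passes through the adaptor Act1 (gene Traf3ip2) and NF-kappa B to chemokine, mucin and antimicrobial genes, and in the airway it is known for recruiting neutrophils. IL-17C comes from epithelial cells and signals through IL-17RA and IL-17RE, while IL-23, made of the subunit p19 (Il23a) and the shared p40 (Il12b), acts through IL-23R to maintain type 17 cells. Rora encodes ROR-alpha, a DNA-binding nuclear receptor with a role in the differentiation of type 17 cells.

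The promoters of Il17re, Il17rc, Il17rd and Il23r are shown because a probe that carried the name of each of these 4 genes passed as higher in a comparison below. For Il17rc that probe runs against the gene's strand, and no probe along the strand passed. They come from RefSeq on build GRCm38.p6 and run 5′ to 3′ on the gene's strand, from 250 bases before to 50 bases after the annotated start. The window of Il17re was chr6:113458521-113458820 on the plus strand, that of Il17rc was chr6:113471205-113471504 on the plus strand, that of Il17rd was chr14:27038751-27039050 on the plus strand and that of Il23r was chr6:67491806-67492105 on the minus strand. Capitals mark matches, on either strand, to the ROR half-site AGGTCA, to the same site with a T before it (TAGGTCA, which contains the half-site), to the antioxidant response element TGACNNNGC, or to the xenobiotic response element GCGTG.
Il17re: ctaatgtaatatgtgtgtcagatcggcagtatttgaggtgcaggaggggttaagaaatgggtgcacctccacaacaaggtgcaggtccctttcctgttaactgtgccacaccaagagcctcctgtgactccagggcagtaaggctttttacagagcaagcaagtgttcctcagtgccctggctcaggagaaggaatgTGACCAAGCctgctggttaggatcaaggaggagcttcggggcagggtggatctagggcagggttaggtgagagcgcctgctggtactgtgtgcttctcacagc
Il17rc: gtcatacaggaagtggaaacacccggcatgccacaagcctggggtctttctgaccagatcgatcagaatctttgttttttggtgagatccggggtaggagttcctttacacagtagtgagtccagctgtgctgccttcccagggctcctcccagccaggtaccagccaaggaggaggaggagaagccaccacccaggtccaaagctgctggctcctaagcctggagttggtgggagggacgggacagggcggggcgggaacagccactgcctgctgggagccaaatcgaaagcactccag
Il17rd: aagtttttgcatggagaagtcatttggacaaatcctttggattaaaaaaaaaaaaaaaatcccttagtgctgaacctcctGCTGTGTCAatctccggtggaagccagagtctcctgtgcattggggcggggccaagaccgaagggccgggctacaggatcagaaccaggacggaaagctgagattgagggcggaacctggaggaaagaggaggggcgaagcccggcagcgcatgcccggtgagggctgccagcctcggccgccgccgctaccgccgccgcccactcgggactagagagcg
Il23r: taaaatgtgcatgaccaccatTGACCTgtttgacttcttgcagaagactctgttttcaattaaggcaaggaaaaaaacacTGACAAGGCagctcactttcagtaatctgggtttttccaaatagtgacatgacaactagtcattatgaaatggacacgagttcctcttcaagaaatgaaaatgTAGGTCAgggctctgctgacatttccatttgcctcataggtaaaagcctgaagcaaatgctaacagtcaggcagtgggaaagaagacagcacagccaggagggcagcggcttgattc
In the Il17re window the capitals were an antioxidant response element whose first base lay 53 bases before the start. In the Il17rc window none of these letters was found. The Il17rd window held an antioxidant response element, on the opposite strand, 170 bases before the start. The Il23r window held ROR half-sites 229 and 66 bases before the start, the second of them as TAGGTCA from base 67, and an antioxidant response element 170 bases before it. Sequences were matched for 8 of the 10 genes, all but Il17ra and Il23a. Among these 8, the half-site was found in 3 (Il17a, Il17f and Il23r), against 16.3% of 32851 promoters of the same length. TAGGTCA was found in 1, Il23r (2.61% of all promoters). The antioxidant element was found in 3, Il17rd, Il17re and Il23r (12.4% of all promoters). GCGTG was found in 1, Il17d (32.4% of all promoters). These matches describe letters and were not tested as binding sites.

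A level here is the log2 of the array's processed signal minus the log2 of that array's 75th percentile, so 0 is the 75th percentile and a difference of 1 is a doubling. Levels of different probes were not set against each other, apart from the dimmest calls given for scale and a mention of bright genes in sums. Probes with 4 or more of 12 arrays well above background were kept for testing, which left 12 of the 17. They covered 6 of the 10 genes: Il17d, Il17ra, Il17rc, Il17rd, Il17re and Il23r. Of these, 11 probes were well above background on all 12 arrays, and no spot of a member was saturated. Differences were tested with limma in 1 model with a mean for each group, and p-values were adjusted over the 30189 kept probes after Benjamini and Hochberg, with 0.05 as the threshold to pass. Where a gene had several probes, they are called a, b, c and d.

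Rora, the mutated gene, had levels of 1.19 ± 0.04 (SD, n = 4) in room air, 1.27 ± 0.04 in WT smoke and -0.92 ± 0.09 in the mutants, a difference of -2.19 ± 0.06 (SE) between mutant and WT smoke (adjusted p = 1.04e-09). On all 12 arrays 70.1% to 74.8% of spots were well above background. The arrays lay on 3 slides of 4, each with all 3 groups, so that a value within a slide rested on a single mouse in at least 1 of the groups compared. Sex-linked genes divided room air from smoke: Xist, expressed from the inactive X chromosome, was at 4.13 ± 0.07 in room air, -5.30 ± 2.09 in WT smoke and -4.51 ± 1.26 in the mutants. The Y-linked Kdm5d, Ddx3y and Uty were well above background on 8 arrays, those of the smoke groups, and the Y-linked Eif2s3y on 10, these 8 and 2 of room air. The room air arrays thus carried the pattern of female mice and the smoke arrays that of male mice, although every mouse was labelled male. In both comparisons with room air, smoke and sex therefore cannot be told apart, for any gene and not only the sex-linked ones. Between the smoke groups 0 of 5 sex-linked genes passed. In whole-lung RNA, fewer cells of a type and less RNA per cell cannot be told apart either.

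Most of the ligands gave no signal above background. The Il17a probe (chromosome 1, 20719063 to 20719122 on mm8, as are all probe positions here) was well above background on 0 of 12 arrays, with processed signals of 2.18 to 3.38 intensity units. For scale, the dimmest probe called well above background had 9.22 to 13.0 units, depending on the array. Il17f, the neighbouring gene (the probe spans 20763144 to 20764489), gave 5.72 to 11.8 units and was also called on 0 arrays. Il23a, the p19 subunit (chromosome 10, 127699659 to 127699718), gave 2.06 to 3.17 units and was called on 0 arrays. These signals set an upper bound for whole lung and do not show that the transcripts were absent.

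Il17c, the epithelial ligand (chromosome 8, 125308477 to 125309437), was called on 1 array, that of WT smoke replicate 3, at 46.3 units. Its other 11 arrays gave 2.10 to 11.6 units. Il17c was thus called in 1 of 8 smoke-exposed mice, and no group difference was tested. The probe had 1 spot on each array, so signal of the transcript and a fault of that spot cannot be told apart. The plot of signals by array shows these probes beside the dimmest calls. The fourth probe of Il17rd, Il17rd d (chromosome 14, 25929292 to 25929351), gave 2.61 to 6.16 units and was called on 0 arrays.

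**Figure D1:**
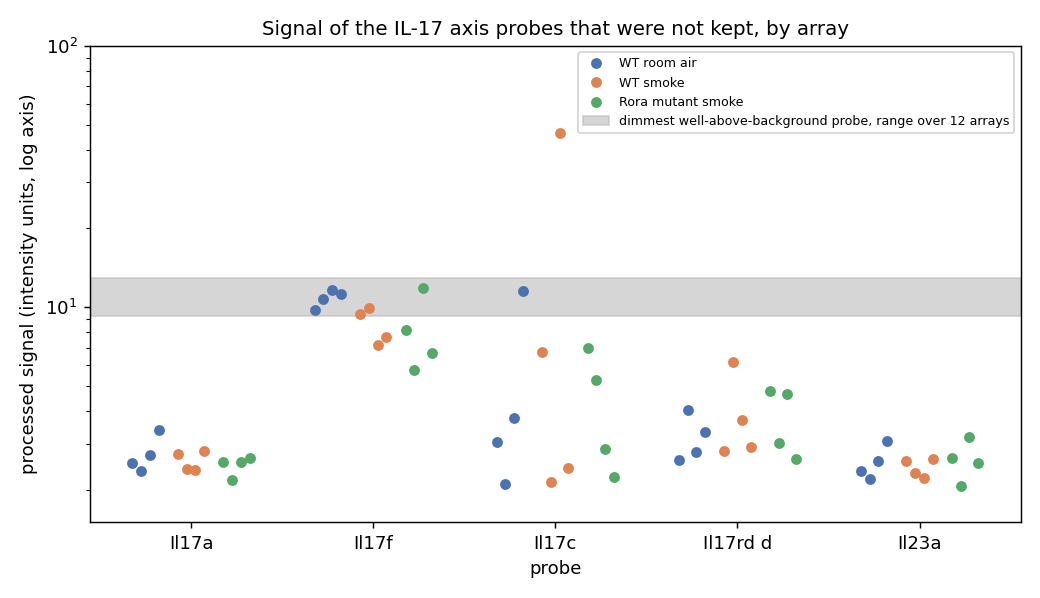
Processed signal in intensity units (log axis) of the 5 IL-17 axis probes that were not kept, 1 point an array, coloured by group. The grey band is the range over the 12 arrays of the dimmest probe called well above background, and the Il17c point at 46.3 units in WT smoke lies above it.

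Il17d was the ligand that was measured on every array. It encodes an IL-17 family cytokine known from many non-lymphoid tissues (its probe lies on chromosome 14, 56497192 to 56497251). Its levels were 1.38, 1.42, 1.36 and 1.52 in room air, 1.40, 1.44, 1.42 and 1.43 in WT smoke, and 1.49, 1.58, 1.49 and 1.31 in the mutants. The 3 groups overlapped. WT smoke minus room air was 0.00 with a 95% interval of -0.13 to 0.14, and mutant minus WT smoke was 0.04 with an interval of -0.09 to 0.18.

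WT smoke and WT room air were compared to ask which IL-17 axis genes went with the exposure. Of the 12 kept probes, 2 passed as higher in smoke and 0 as lower. One was a probe of Il17re, and the other carried the name Il17rc but runs against the strand of that gene. Over all probes, 4.09% passed in either direction, 2.05% as higher and 2.03% as lower, and 6 of the 12 had an unadjusted p under 0.05, against 17.6% of all probes. The groups did not overlap for 5 of the 12 probes, against 12.2% of all probes. The median difference of the 12 probes was 0.12, beside -0.01 over all probes tested.

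Il17re encodes the IL-17C receptor chain of epithelial cells, and its probe a lies on chromosome 6, 113435930 to 113435989. The levels were 1.90, 1.86, 1.93 and 1.95 in room air, 2.26, 2.19, 2.25 and 2.11 in WT smoke, and 2.14, 2.03, 2.14 and 2.17 in the mutants. All 8 smoke-exposed mice were above all 4 mice in room air. WT smoke exceeded room air by 0.29 ± 0.05 (SE), or 1.22-fold (adjusted p = 0.0114), and within the 3 slides the difference was 0.33, 0.29 and 0.32. The mutants lay between: they exceeded room air by 0.21 ± 0.05 (adjusted p = 0.0228), and minus WT smoke they were at -0.08 with an interval of -0.20 to 0.04. The call against room air of the mutants ended without WT room air replicate 2 (difference 0.19), mutant replicate 1 (0.20) or mutant replicate 4 (0.19). With another background correction, limma's normexp on the raw spot signals, neither call held, with WT smoke minus room air at 0.36 (adjusted p = 0.579). Normexp was run with an offset of 50 units added to each spot, more than the processed signals of dim probes such as Il23r (7.02 to 17.4 units). With it the median difference over all probes was -0.11 for WT smoke against room air, 0.15 for mutant against WT smoke and 0.09 for mutant against room air.

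The other Il17re probe, b (113426079 to 113426138), had levels of -5.26, -5.30, -5.40 and -5.25 in room air and -5.05, -4.90, -5.25 and -5.09 in WT smoke. These groups did not overlap, and the difference was 0.23 ± 0.11 (adjusted p = 0.335). In the mutants probe b spread over -5.46 to -4.86. The 2 Il17re probes had a correlation of 0.28 over the 12 arrays, which share the same groups and scaling.

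Il17rc encodes the chain that pairs with IL-17RA to bind IL-17A and IL-17F, and it had 3 kept probes. Probes a and b (chromosome 6, 113448848 to 113448907 and 113448728 to 113448787) run along the strand of the gene. Probe c (113447986 to 113448045) runs against it by the order of its coordinates. Of 26183 probes with a position and a gene strand, 98.9% run along the strand, so probe c may read a transcript of the opposite strand and is reported apart.

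The levels of Il17rc probe a were 2.69, 2.69, 2.77 and 2.82 in room air, 2.91, 2.92, 2.94 and 2.95 in WT smoke, and 2.85, 2.88, 2.92 and 2.84 in the mutants. The mice in room air were the 4 lowest. The difference between WT smoke and room air was 0.19 ± 0.05 with an interval of 0.08 to 0.29 and missed the threshold (adjusted p = 0.0508). It passed when each array was scaled to its median (0.22, adjusted p = 0.0315) and when 1 probe per gene was tested (adjusted p = 0.0398). The mutants exceeded room air by 0.13 (adjusted p = 0.0857), and with median scaling by 0.20 (adjusted p = 0.0167). Il17rc probe b had room air levels of 1.86, 1.78, 1.73 and 1.92 and WT smoke levels of 2.02, 1.91, 1.97 and 1.93, which overlapped, with a difference of 0.13 (adjusted p = 0.258). The mutants were at 1.90, 1.88, 1.99 and 1.87 for probe b. Probes a and b had a correlation of 0.74 over the 12 arrays.

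Il17rc probe c passed in smoke. Its levels were -4.53, -4.52, -4.46 and -4.61 in room air, -3.43, -3.94, -3.93 and -3.81 in WT smoke, and -4.10, -4.06, -3.98 and -4.00 in the mutants. The 3 groups did not overlap, in the order room air, mutant smoke, WT smoke. WT smoke exceeded room air by 0.75 ± 0.10, or 1.68-fold (adjusted p = 0.00141), and by 1.14, 0.64 and 0.53 within the slides. The mutants exceeded room air by 0.49 ± 0.10 (adjusted p = 0.00657), while mutant minus WT smoke was -0.26 (interval -0.47 to -0.04) and did not pass (adjusted p = 0.155). With normexp the difference between WT smoke and room air was -0.01 (adjusted p = 0.997), and both calls of probe c ended.

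Il17ra encodes the chain that all these receptors share. Its probe a (chromosome 6, 120448344 to 120448403) had levels of -1.02, -1.13, -1.18 and -1.22 in room air, -1.04, -0.92, -1.17 and -0.98 in WT smoke, and -0.99, -0.96, -1.17 and -0.78 in the mutants. The 3 groups overlapped. WT smoke minus room air was 0.11 with an interval of -0.08 to 0.30 (adjusted p = 0.576). Probe b (120448481 to 120448540) spanned -1.52 to -1.01 in room air, -1.47 to -0.97 in WT smoke and -1.52 to -0.89 in the mutants, and the probes had a correlation of 0.79.

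Il17rd encodes SEF, known as an inhibitor of fibroblast growth factor signalling that also takes part in IL-17 signalling. Its 3 kept probes, a, b and c, lie on chromosome 14 at 25934009 to 25934068, 25915786 to 25915845 and 25926878 to 25926937. They went different ways: WT smoke minus room air was 0.08 for a, -0.11 for b and -0.27 ± 0.09 for c, and none of the 3 passed. Probe c had levels of -4.62, -4.61, -4.61 and -4.53 in room air, -4.83, -5.00, -4.82 and -4.80 in WT smoke, and -4.53, -4.99, -4.80 and -4.91 in the mutants. WT smoke lay below room air in all 4 mice, and mutant replicate 1 stood at the level of room air. The difference of probe c between WT smoke and room air passed without mutant replicate 1 (-0.27, adjusted p = 0.0452), since the 3 groups share an estimate of the spread. Without the same mouse, mutants minus room air passed too (-0.31, adjusted p = 0.0167), against -0.21 (adjusted p = 0.129) with it. Over the 12 arrays the correlations were -0.05 between a and b, -0.37 between a and c, and 0.51 between b and c, so the gene has no single direction here.

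Il23r encodes the IL-23 receptor chain of type 17 cells. Its probe spans 67356242 to 67361241 on chromosome 6 and was well above background in 2 of 4 mice in room air and in all 8 smoke-exposed mice. In the smoke-exposed mice its processed signals were 12.2 to 17.4 units, near the dimmest calls of 9.22 to 13.0 units, so it was dim in every group. The levels were -6.30, -6.03, -7.18 and -6.94 in room air, -6.04, -6.15, -6.19 and -5.68 in WT smoke, and -5.93, -5.73, -6.00 and -5.91 in the mutants. Room air replicates 3 and 4 were the lowest of the 12, and the ranges of room air and WT smoke overlapped. The difference of 0.60 ± 0.22 between WT smoke and room air did not pass (adjusted p = 0.166). By slide it was 0.58, 0.12 and 0.99.

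**Figure D2:**
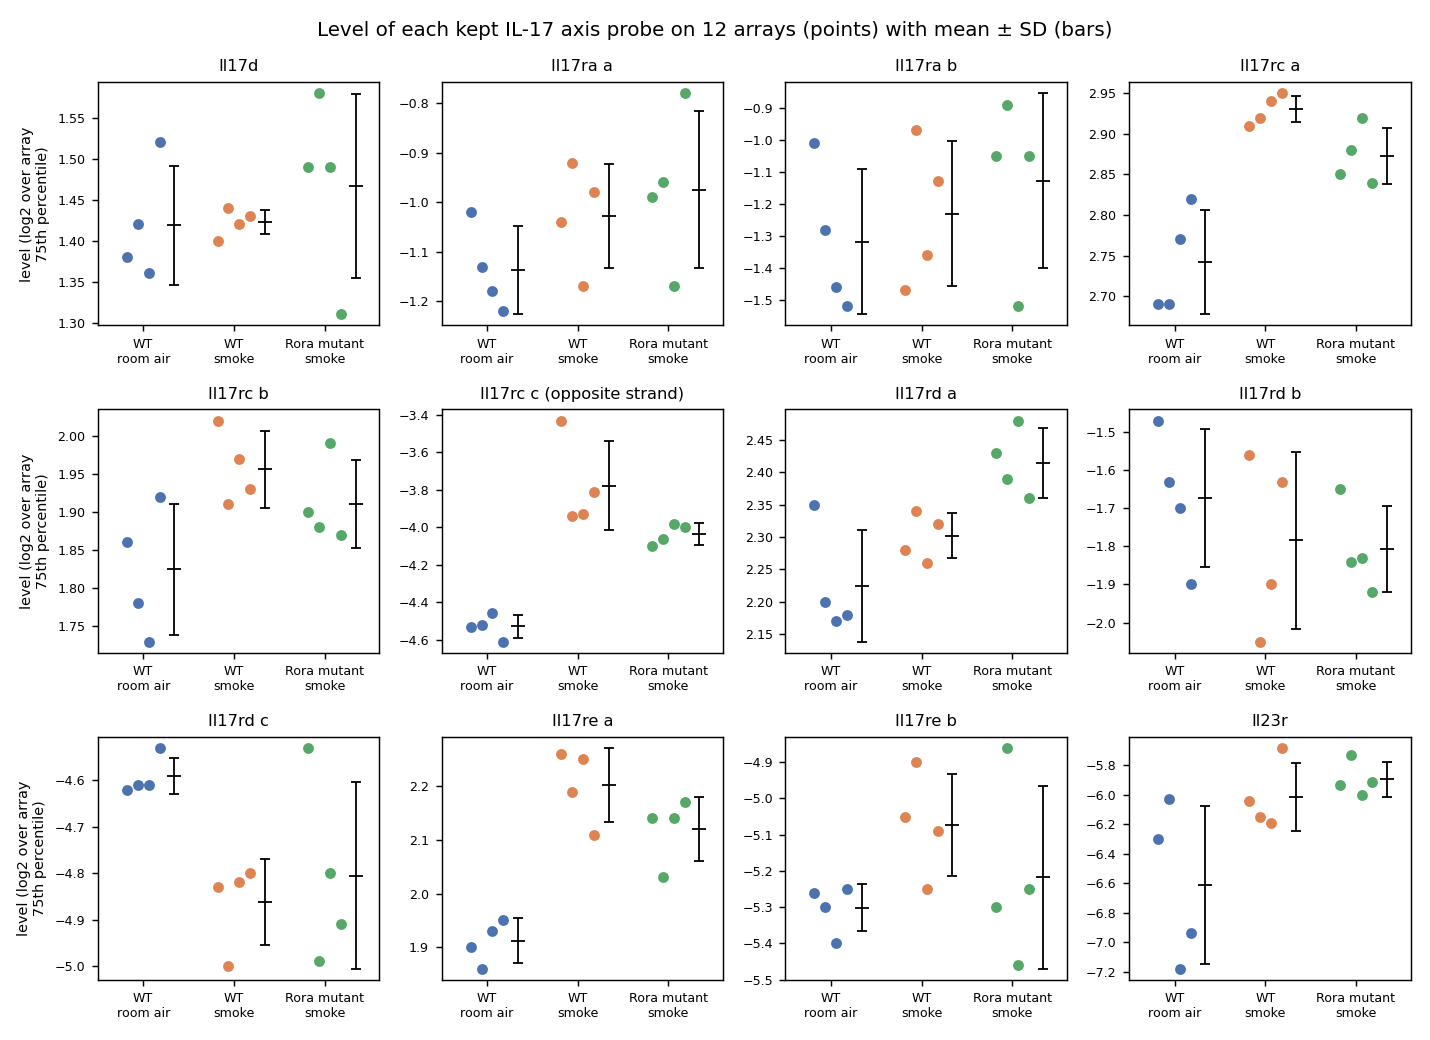
Level (log2 over the array's 75th percentile) of the 12 kept probes, each in its own panel with its own axis, with 1 point a mouse and the mean ± SD of each group of 4 beside the points. All 8 smoke-exposed mice lie above the 4 room air mice for Il17re a, for Il17rc a and for the opposite-strand probe Il17rc c, and the 3 Il17rd panels differ in direction.

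Mutant and WT mice in smoke were compared to ask which of these genes went with the Rora genotype. None of the 12 kept probes passed in limma, against 5.81% of all probes (2.16% as higher, 3.64% as lower), and 1 had an unadjusted p under 0.05 (the opposite-strand probe Il17rc c), against 21.4% of all probes. The differences ran from -0.26 to 0.12, and their median was 0.01, beside 0.00 over all probes. The groups did not overlap for 2 of the 12 probes, against 13.4% of all probes: Il17rc c was lower in the mutants, and Il17rd a was higher. Il17rd a had levels of 2.28, 2.34, 2.26 and 2.32 in WT smoke and of 2.43, 2.39, 2.48 and 2.36 in the mutants, a difference of 0.11 (adjusted p = 0.273).

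For Il17rc a, mutant minus WT smoke was -0.06 with an interval of -0.16 to 0.05. For Il17ra a it was 0.05, with an interval of -0.13 to 0.24. For Il23r, the least precise, it was 0.12 with an interval of -0.36 to 0.60. The family member that passed as lower was Il17rb, the receptor chain for IL-25 and a marker of type 2 innate lymphoid cells, which was listed as a comparator. The array has 2 Il17rb probes, of which the kept probe of highest mean was read. Its levels were -4.29, -4.24, -4.53 and -3.88 in room air, -4.52, -4.33, -4.38 and -4.50 in WT smoke, and -5.42, -5.56, -5.31 and -5.74 in the mutants. The mutants lay below every WT mouse, by 1.08 ± 0.13 against WT smoke on the log2 scale (difference -1.08, adjusted p = 0.00107), but with normexp the difference was 0.32 (adjusted p = 0.679). The probe was dim: on the mutant arrays the dimmest probe called well above background was at -6.58 to -6.39. The ligand genes Il17b and Il25 were called on 0 arrays.

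**Figure D3:**
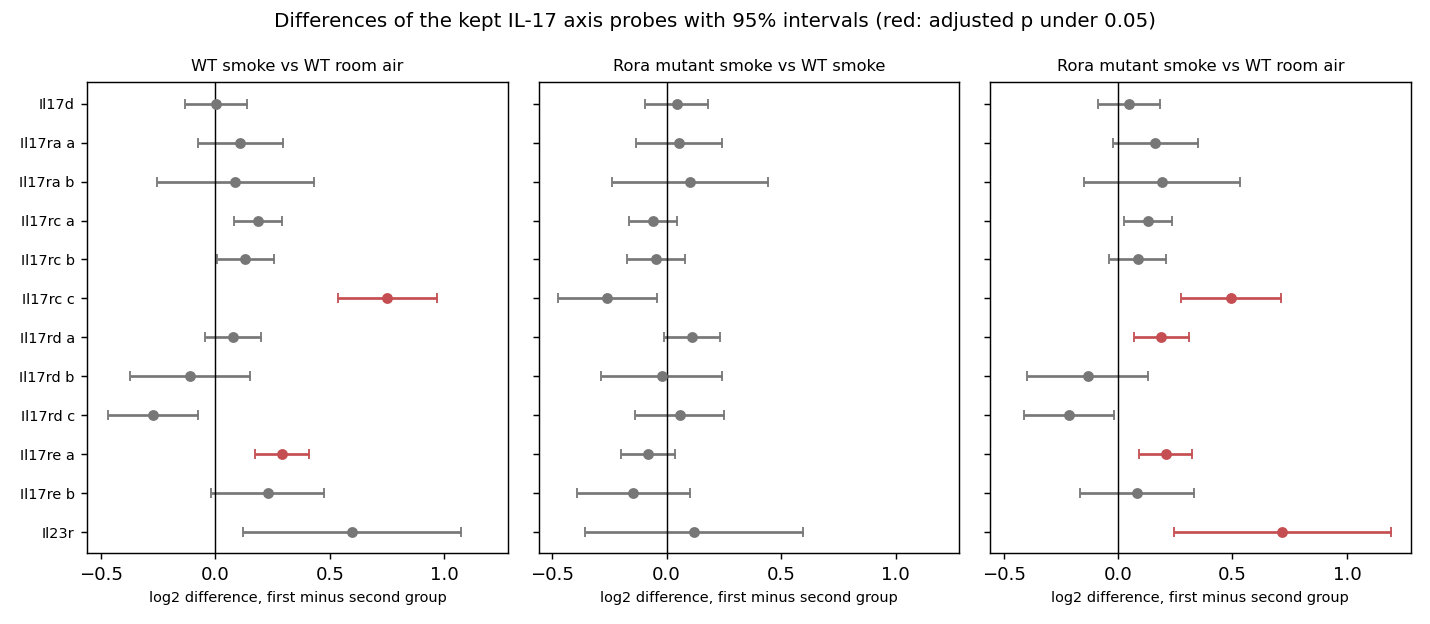
Log2 differences (first minus second group) of the 12 kept probes in the 3 comparisons, with 95% intervals from limma and with probes at an adjusted p under 0.05 in red. In the middle panel, mutant against WT smoke, the differences run from -0.26 to 0.12 and no probe is red.

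Mutant mice in smoke and WT mice in room air differ in both genotype and exposure, and this comparison shares its groups with the other two. Of the 12 probes 4 passed as higher and 0 as lower, where 16.3% of all probes passed in either direction, 6.59% as higher and 9.72% as lower. An unadjusted p under 0.05 was reached by 6 of the 12, against 30.8% of all probes. The groups did not overlap for 5 probes, against 20.5% of all probes, and the median difference was 0.15, beside 0.00 over all probes. Beside Il17re a and the opposite-strand probe Il17rc c, Il17rd a was higher by 0.19 ± 0.06 (adjusted p = 0.0381) and Il23r by 0.72 ± 0.22 (adjusted p = 0.0433). For Il23r only 2 of 4 room air arrays were well above background, so the size of its difference rests partly on values at background.

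Both of these latter calls lay near the threshold. The Il17rd a call ended in 15 of 22 alternative settings, among them quantile normalization (0.16, adjusted p = 0.0621) and the slide as a block (0.20, adjusted p = 0.0515). It also ended without WT room air replicate 2, 3 or 4, any mutant or WT smoke replicate 3. The Il23r call ended in 12 of 21 settings, among them without WT room air replicate 3 or 4, any mutant or WT smoke replicate 1, 2 or 3, and its difference was 0.69, 0.30 and 1.22 within the slides. Without WT room air replicate 3 it was 0.53, without replicate 4 it was 0.61, and without the other arrays named 0.66 to 0.75. The count of 4 higher probes became 2 without WT room air replicate 2, 3 or 4, mutant replicate 2 or 3 or WT smoke replicate 3, and 1 without mutant replicate 4. Without mutant replicate 1 it was 1, and 1 probe, Il17rd c, passed as lower.

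The genes whose levels followed the called probes most closely over the 12 arrays were taken from all kept genes by Pearson correlation, as a description. For Il17re a they were the glycine transporter Slc6a9 (0.97), the early response gene Ier3 (0.96) and the neurotrophic factor Artn (0.95). For the opposite-strand probe Il17rc c they were the replication inhibitor geminin, Gmnn (0.96), Slc46a3 (0.96) and the gasdermin Gsdme (0.96). For Il17rd a they were the ESCRT subunit Snf8 (0.94), Nlrp10 (0.93) and Zfp622 (0.91). For Il23r they were Acot4 (0.93), Rrp1b (0.91) and 4921507P07Rik (0.91). Genes that separate the groups are drawn to the top of such a ranking, since the arrays share the groups and the scaling.

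Il17re and Il17rc are neighbours on chromosome 6, between Jagn1 and Creld1. In WT smoke minus room air, Jagn1 was at -0.02 and Creld1 at 0.16 (adjusted p = 0.167). Of the 3 genes before Il17re, Rpusd3, the farthest, passed as higher (0.24, adjusted p = 0.0397), and Cidec was at 0.07. Il23r lies next to Il12rb2, the IL-12 receptor chain. It was well above background on 2 of 4 arrays in room air, 0 of 4 in WT smoke and 2 of 4 in the mutants.

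Downstream of the receptors, few of the listed signalling genes passed. Of 30 genes, 1 rose and 0 fell in WT smoke against room air, where 4.38% of all genes passed, 2.17% as higher and 2.22% as lower, when each gene was read by its brightest kept probe. The median difference was 0.00, beside -0.01 over all genes. The gene that rose was Ikbkg, the X-linked regulatory subunit of the kinase that activates NF-kappa B, at 0.41 ± 0.08 (adjusted p = 0.022). Its other probes gave 0.80, 0.43 and 0.10, and the call ended in 5 of 22 settings: with normexp and without WT room air replicate 1 or 4 or WT smoke replicate 1 or 3, where the difference was 0.36 to 0.47 over all settings. Between the smoke groups 0 of 30 passed in limma, against 5.9% of all genes (2.51% as higher, 3.39% as lower). For mutants against room air 3 rose and 1 fell, against 16.4% of all genes (6.99% as higher, 9.41% as lower): Ikbkg, the transcription factor Cebpb (0.45 ± 0.10, adjusted p = 0.0106) and the adaptor Tab3 (0.17) rose, and Nfkb1 fell by 0.23. The Tab3 call ended in 16 of 22 settings and that of Nfkb1 in 15. The other Nfkb1 probes gave 0.11, -0.14 and -0.17, and none of them passed. With normexp the calls of Ikbkg and Cebpb ended, the latter at 0.37 (adjusted p = 0.253).

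Genes that IL-17 is known to induce in epithelium and stroma moved in both directions. Of 29 listed genes 24 were kept, while Csf3, Cxcl3 and Il19 were called on 0 arrays, Cxcl2 on 2, and Defb4 was not matched to a probe. In WT smoke against room air 2 rose and 2 fell, where 2.17% of all genes passed as higher and 2.22% as lower, and the median was 0.07 beside -0.01 over all genes. Ptgs2, the inducible cyclooxygenase, had levels of -3.34, -3.10, -2.80 and -3.31 in room air, -1.92, -2.10, -1.55 and -1.99 in WT smoke, and -2.53, -2.61, -2.35 and -2.29 in the mutants. The groups did not overlap. Ptgs2 rose by 1.25 ± 0.14 in WT smoke (adjusted p = 5.11e-04), and its other probe gave 1.18, but with normexp the difference was 0.53 (adjusted p = 0.879).

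The neutrophil chemokine Cxcl5 was higher by 1.69 ± 0.42 in WT smoke (adjusted p = 0.048), but only 2 of 4 room air arrays were well above background, so this size rests partly on values at background. One mouse in room air, replicate 3, stood at -4.83 among the smoke levels of -4.85 to -4.16, and the call ended in 16 of 21 settings. The airway mucin Muc5b fell: 2.25, 2.42, 2.31 and 2.11 in room air, 0.95, 0.43, 0.67 and 0.53 in WT smoke, and -0.10, -0.21, -0.05 and -0.18 in the mutants. The 3 groups did not overlap. Muc5b dropped by 1.63 ± 0.11 in WT smoke (difference -1.63, adjusted p = 5.62e-06), and this call held in all 22 settings. Muc5ac, the other gel-forming mucin, was at -1.41 ± 0.16 (adjusted p = 5.64e-04), whereas its other probe was at -0.12 (adjusted p = 0.797) and with normexp the difference was -0.89 (adjusted p = 0.879).

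Between the smoke groups 1 IL-17 response gene rose and 4 fell in the mutants, where 2.51% of all genes passed as higher and 3.39% as lower, and the median was -0.25 beside 0.01 over all genes. Mmp3, a stromal metalloproteinase, had levels of 1.14, 1.04, 1.22 and 1.23 in WT smoke and -0.19, 0.22, 0.23 and -0.10 in the mutants. All mutants lay below all WT mice, the difference was -1.11 ± 0.10 (adjusted p = 1.85e-04), and the call held in all 22 settings. Muc5b was at -0.78 ± 0.11 (adjusted p = 0.00233) and Ptgs2 at -0.55 ± 0.14 (adjusted p = 0.0422). Mmp9 was at -0.51 ± 0.09 (adjusted p = 0.00773), but with normexp at 0.09. Hamp, which encodes the iron hormone hepcidin, rose by 0.59 ± 0.15 (adjusted p = 0.0416), a call that ended in 14 of 22 settings. With normexp the calls of Muc5b and Hamp ended too. The Ptgs2 call between the smoke groups was not followed over the settings. Mutants against room air had 3 genes that rose and 6 that fell, where 6.99% of all genes passed as higher and 9.41% as lower. Among those that fell were Muc5b at -2.41, Muc5ac at -1.81 and Mmp3 at -1.41. With normexp this Muc5ac call ended (-0.67, adjusted p = 0.711).

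**Figure D4:**
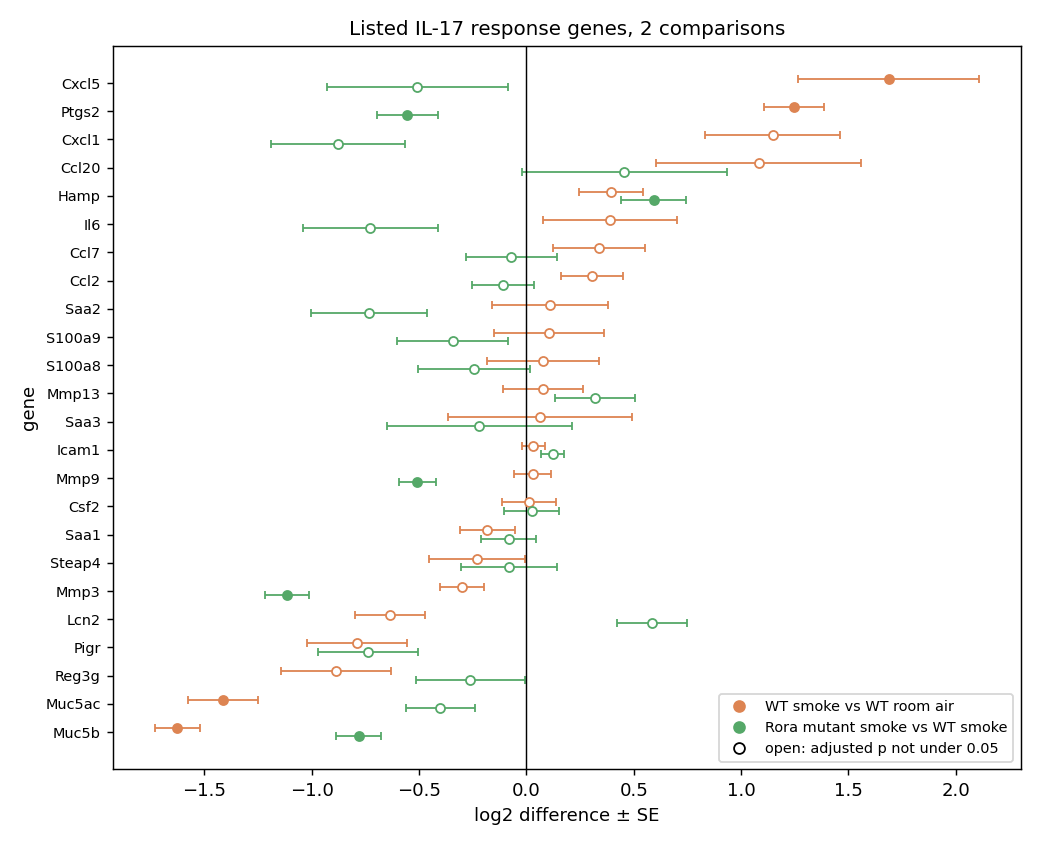
Log2 difference ± SE of the 24 kept IL-17 response genes in WT smoke against room air (orange) and in mutant against WT smoke (green), with filled points for an adjusted p under 0.05. Ptgs2 and Cxcl5 lie to the right and Muc5b and Muc5ac to the left in smoke, and Mmp3 lies at -1.11 in the mutants.

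Of 10 partners of IL-23 and IL-12, such as p40 (Il12b), the shared receptor chain Il12rb1 and the kinases Jak2 and Tyk2, 0 passed in WT smoke against room air (limma, adjusted p under 0.05). Likewise 0 passed between the smoke groups. Over all genes 4.38% and 5.9% passed in these comparisons. For mutants against room air Stat3, the transcription factor downstream of IL-23R, fell by 0.24 ± 0.07 (adjusted p = 0.0375), while its other probe was at 0.12. The Stat3 call ended in 13 of 22 settings, and 9.41% of all genes passed as lower in this comparison.

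The type 17 programme, 22 kept of 25 listed genes, had 1 call in WT smoke against room air: Tgfb3, a growth factor that promotes type 17 differentiation, was at -0.39 ± 0.07 (adjusted p = 0.00983). Over all genes 4.38% passed in that comparison. Between the smoke groups 0 of the 22 passed in limma, against 5.9% of all genes. For mutants against room air Tgfb3 (-0.31), Irf4 (-0.52) and the leukotriene receptor Ltb4r1 (-0.36) fell, where 9.41% of all genes passed as lower. With normexp Irf4 was at 0.08 and its call ended, as did the Tgfb3 calls in both comparisons. The Ltb4r1 call ended in 8 of 22 settings, normexp among them. The effector cytokine genes Il21 and Il22 were called on 0 arrays.

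Markers of the cells that make or answer IL-17 were read on the same arrays. Of 15 kept T cell markers 0 passed in WT smoke against room air and 0 between the smoke groups. Their medians were -0.23 and -0.14, and the log2 of their summed signal spanned 3.43 to 4.01 in room air, 3.16 to 3.49 in WT smoke and 3.08 to 3.61 in the mutants. Over all genes 4.38% passed in WT smoke against room air, and 5.9% between the smoke groups (2.51% as higher, 3.39% as lower). For mutants against room air 1 of the 15 was higher, and the median was -0.37 beside 0.00 over all genes. Lat passed as lower there (-0.49 ± 0.12, adjusted p = 0.0191), as did 9.41% of all genes, and its call ended in 3 of 22 settings. Of 11 gamma-delta T cell markers 0 passed in WT smoke against room air, and 2 rose in the mutants against WT smoke. These were Cd163l1, a scavenger receptor of IL-17-producing gamma-delta T cells, at 1.36 ± 0.17 (adjusted p = 0.00144), and its relative 5830411N06Rik at 1.04 ± 0.14 (adjusted p = 0.00208). With normexp both calls ended, at 1.14 (adjusted p = 0.0653) and 0.79 (adjusted p = 0.61). The other 9 markers did not pass, and the median of the 11 was 0.11, beside 0.01 over all genes. The constant-region genes of the gamma and delta receptor were not among the array's gene names used here. The summed gamma-delta signal spanned 4.00 to 4.19 in room air, 4.03 to 4.22 in WT smoke and 4.29 to 4.39 in the mutants. The sum adds signals before the log, so bright genes weigh most in it. Cd163l1 went from a mean of 0.30 in WT smoke to 1.66 in the mutants, and its part in the sum was not tested. Il17a was called on 0 arrays, also in these mutants.

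Of 11 markers of type 3 innate lymphoid cells, 1 rose in WT smoke against room air, the receptor kinase Kit (0.41 ± 0.09, adjusted p = 0.0217, a call that ended in 6 of 22 settings), and 0 passed between the smoke groups. Beside these and the neutrophil counts, 2.17% of all genes passed as higher and 2.22% as lower in WT smoke against room air. Between the smoke groups the shares were 2.51% and 3.39%. Of 14 kept neutrophil markers 1 fell in WT smoke against room air, Ltf (lactoferrin, -2.02 ± 0.37, adjusted p = 0.0105), which airway glands also make. Between the smoke groups the formyl peptide receptors Fpr1 (1.02 ± 0.09, adjusted p = 1.68e-04) and Fpr2 (0.82 ± 0.14, adjusted p = 0.00747) rose and Mmp9 fell. Only 4 of the 14 markers were higher in the mutants here, and the median was -0.21, beside 0.01 over all genes. With normexp the calls of Fpr2 (0.74, adjusted p = 0.212) and Mmp9 (0.09) ended. The Ltf call against room air ended with it too (-1.82, adjusted p = 0.153). The granule genes Elane and Camp were called on 0 arrays. The summed neutrophil signal spanned 4.03 to 4.90 in room air, 4.10 to 4.46 in WT smoke and 3.77 to 4.39 in the mutants, so the groups overlapped.

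Macrophage markers were higher in the mutants. Of 11 genes 2 rose in WT smoke against room air, 6 in the mutants against WT smoke and 8 in the mutants against room air, and 0 fell in each. The shares of all genes that rose in these comparisons were 2.17%, 2.51% and 6.99%. Their summed signal spanned 6.65 to 6.79 in room air, 6.70 to 6.85 in WT smoke and 7.14 to 7.75 in the mutants. Bright genes weigh most in this sum as well. Among them Chil3 went from a mean of 6.25 in WT smoke to 6.99 in the mutants, and its part in the sum was not tested. Siglecf, an alveolar macrophage lectin with a lower level, was at 0.83 ± 0.08 against WT smoke (adjusted p = 3.43e-04). Of 19 epithelial markers, the cell type known for IL-17RE, 3 fell in WT smoke against room air (Lamp3, Sftpd and Sftpa1, with calls that ended in 9, 8 and 12 of 22 settings) and 0 passed between the smoke groups. The summed epithelial signal overlapped, at 11.11 to 11.27 in room air, 10.88 to 11.39 in WT smoke and 11.04 to 11.16 in the mutants. Of 13 dendritic cell markers, a source of IL-23, 1 fell in WT smoke against room air, Batf3 (-0.49 ± 0.12, adjusted p = 0.0432, ended in 12 of 22 settings), and 0 passed between the smoke groups. Beside the epithelial and dendritic counts, 2.22% of all genes passed as lower in WT smoke against room air. Between the smoke groups 5.9% passed in either direction. The part of these cell types in the differences of the receptor genes was not tested.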

How the data were processed

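Total RNA of whole lung was hybridised to single-colour (Cy3) Agilent arrays. Per the file headers, the authors extracted the signals with Agilent Feature Extraction 9.5.3.1. The processed signal they deposited is an intensity, background-subtracted and detrended array by array, and not normalized across arrays. The raw spot and background signals are uncorrected intensities, and the flags that the authors deposited are other values of 0 or 1. The authors' deposited value table holds log2 values. Its columns share a median of 6.79 and follow the processed signal with a lowest correlation of 0.99952 for an array, and it served as an alternative.

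Spots of a probe were averaged, log2 signals were centred on each array's 75th percentile, and limma 3.58.1 (R 4.3.3) was fitted to all 12 arrays, two-sided. The number of arrays limits the precision. Positions are on mm8, and exon annotation of that build was not used here. Other gene lists were read by each gene's kept probe of highest mean (19819 genes), naming up to 4 genes with the smallest p in a comparison, besides Rora. Some genes occur in several lists. The result of 1 listed gene is not reported here. Members and lists were chosen with earlier results of these data known. The 22 alternatives changed background correction, scaling, filter, probes per gene, blocks, samples in the fit, or left out 1 array.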

Additional observations from a re-analysis of the deposited data

Results flagged for a closer look

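Il17rd probe c was flagged for single mice that stood apart from the other 3 of their group. WT room air replicate 4 was the highest of its group at -4.53, where the others were at -4.62 to -4.61. WT smoke replicate 2 was the lowest of its group at -5.00, where the others were at -4.83 to -4.80. These came from 51 groups of 4 values, and chance alone flags about 1 in 20 groups.

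The Il17c probe was not kept for testing, yet on the array of WT smoke replicate 3 it was well above background at 46.3 intensity units. On the 4 room air arrays it gave at most 11.6 units.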

How the results depend on the processing

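Over all settings, 707 values of single probes kept their direction and side of the threshold, 33 lost their call and 5 gained a call. Another 25 passed in neither setting and turned sign, 11 of them with normexp, among them Il23r in WT smoke against room air (from 0.60 to -0.27) and Il17rd c in mutants against room air (from -0.21 to 0.23). In 1 case a call ended with a turn of sign, that of the opposite-strand probe Il17rc c in WT smoke against room air, at -0.0064 with normexp, where the median of all probes was -0.11. With normexp the IL-17 axis counts became 0 in both comparisons with room air, and the counts over all probes fell from 1234 to 46 for WT smoke against room air, from 1753 to 26 for mutant against WT smoke and from 4925 to 161 for mutant against room air; the cause was not tested. With no filter on dim probes the all-probe counts were 738 and 927 in the first and second of these comparisons, and the IL-17 axis count for mutants against room air was 2. With only the 2 groups of a comparison in the fit, that count was 2 and the all-probe count between the smoke groups was 1023. Scaling to the median moved the calls from 620 higher and 614 lower to 802 and 451, from 653 and 1100 to 940 and 861, and from 1990 and 2935 to 4378 and 2179. With normexp they were 34 and 12 for WT smoke against room air.

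Leaving out 1 array gave IL-17 axis counts of 2 to 3, 0 to 0 and 1 to 4, and all-probe counts of 718 to 1268, 767 to 1831 and 3180 to 4802. The all-probe counts moved most without WT room air replicate 4 (718), mutant replicate 4 (767 and 3180), WT smoke replicate 2 (749) and WT smoke replicate 1 (777). They also moved by over 1.5 times without WT room air replicate 2 (766) and WT smoke replicates 3 (797) and 4 (810) against room air, and without mutant replicate 1 (1090) and WT smoke replicates 2 (1112) and 3 (941) between the smoke groups. With the replicate number as a block, the IL-17 axis counts were 2, 0 and 3, and the all-probe counts 867, 1668 and 4463. Same-numbered samples correlated at -0.08 to 0.20, so the numbers give no pairing, and the block ended 1 IL-17 axis call, Il17rd a in mutants against room air. With the slide as a block the IL-17 axis counts were 2, 0 and 3. The 4 genes without a kept probe limit what can be said of the ligands.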
